A study of Caenorhabditis elegans with 6 samples.

Results

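The transcripts described here come from 44 genes of DNA replication and cell division, listed by gene name among the 46659 rows of a table of read counts from embryos of the nematode Caenorhabditis elegans. The list holds the MCM, ORC, RFC and ribonucleotide reductase genes with other replication factors (19 genes, called S phase members), the cyclins, kinases and inhibitor that act before and at S phase entry (5 genes), and the genes of mitosis (20 genes). All 44 were found in the table and all 44 passed the filter on low counts, with 1236 to 129082 counts per library. Total RNA depleted of ribosomal RNA was sequenced, in strand-specific libraries, from eggs that bleaching released from age-synchronized adults kept at 20 °C. The 3 control libraries are from ced-3(n1286) animals, and 3 libraries are from dot-1.1(knu339); ced-3(n1286) animals, so that both groups carry the ced-3 allele. They are called single and double mutants below. The labels call the samples biological replicates, give no age of the embryos, and do not describe how the knu339 allele alters dot-1.1.

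Before S phase, the origin recognition complex (ORC) with CDC-6 and CDT-1 loads the MCM helicase onto DNA. Cyclin-dependent kinases then start the forks, where clamp loader, sliding clamp, primase and single-strand binding protein work while ribonucleotide reductase supplies the nucleotides. At mitosis, CDK-1 with cyclin B, the Polo and Aurora kinases, the kinetochore and condensin divide the copied chromosomes, and the anaphase-promoting complex ends the division. The first divisions of the worm embryo are fast, lack gap phases and run on RNA supplied by the mother, and most cells stop dividing as they differentiate later in embryogenesis. In the worm, DOT-1.1 corresponds to DOT1L, which methylates lysine 79 of histone H3, and CED-3 is the caspase of programmed cell death. The comparison of the genotypes asks what a mutation of dot-1.1 does to transcripts in animals that carry a mutation of this caspase gene.

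Library totals were between 66316445 and 77957224 counts, and a count of 0 would allow up to 0.0385 to 0.0452 CPM, the count scaled to library size, for counting error alone. The targeted gene dot-1.1 was at 66.9, 34.8 and 45.9 CPM in the single mutants against 62.6, 28.6 and 36.2 CPM in the double mutants, so its level does not check the labels. Markers of the embryo were present: 14 of 14 maternal and early embryonic transcripts and 10 of 10 muscle and pharynx genes passed the filter. The 7 adult tissue genes summed to 2.01, 1.33 and 2.26 CPM in the single and 4.15, 3.65 and 3.9 CPM in the double mutants. All 6 that passed the filter had a log2 fold change above 0, and 0 passed the test between genotypes described below. The 6 sperm genes summed to 0.415 to 1.13 CPM per library, with ssp-16 at 0 in all libraries.

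The most abundant members per length were cyb-3, rnr-2, pcn-1 and top-2, and the least abundant were cyd-1, cye-1 and cdk-2, which act at S phase entry. The cyclin B3 gene cyb-3 (T06E6.2, chromosome V, 15395696 to 15397353) was at 479.3 ± 97.6 CPM per kb of exon in the single and 453.4 ± 123.4 in the double mutants (SD, n = 3 per genotype). The small subunit gene of ribonucleotide reductase, rnr-2 (C03C10.3), followed at 462 ± 135 and 398 ± 84.1 CPM per kb, and the sliding clamp gene pcn-1 (W03D2.4) at 369 ± 103 and 337 ± 104 CPM per kb. The DNA topoisomerase II gene top-2 (K12D12.1) was at 305 ± 11.5 and 311 ± 38.9 CPM per kb. The SDs of cyb-3, rnr-2 and pcn-1 overlap between neighbours, as do those of pcn-1 and top-2. The next gene, the single-strand binding protein gene rpa-1 (F18A1.5), lay below them at 171 ± 28.6 and 155 ± 36.1 CPM per kb. At the other end were cyclin D (cyd-1, Y38F1A.5; 16.1 ± 3.68 and 16.2 ± 6.08), cyclin E (cye-1, C37A2.4; 13.2 ± 0.39 and 13.3 ± 2.29) and its kinase gene cdk-2 (K03E5.3; 10.5 ± 0.29 and 9.21 ± 2.38 CPM per kb). Exons of cdk-2 share 100 bases with the non-coding RNA gene K03E5.9 on the same strand.

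**Figure D1:**
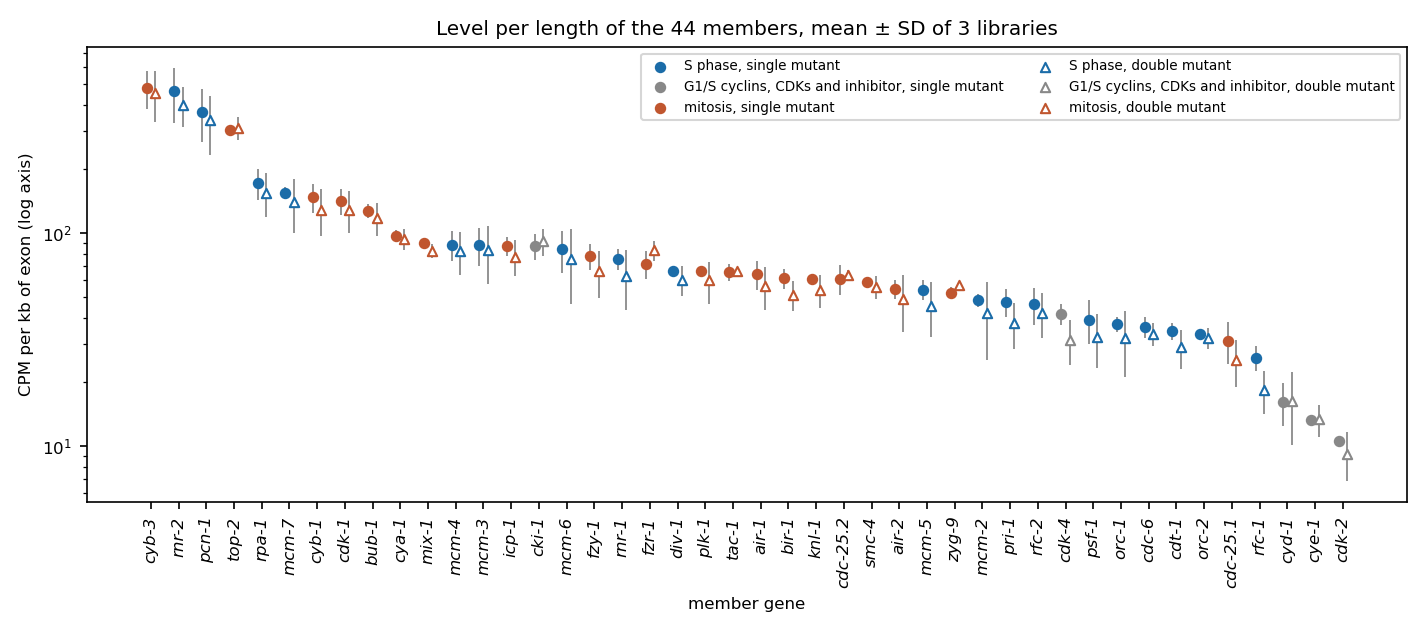
Level of each of the 44 members in CPM per kb of exon on a log axis, as the mean and SD of 3 libraries, filled circles for single and open triangles for double mutants, coloured by class. Levels run from cyb-3 at 479.3 to cdk-2 at 10.5 CPM per kb in the single mutants, and the genotypes overlap for all 44 members in CPM.

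Subunit genes of the MCM helicase and of ribonucleotide reductase were not at equal RNA levels, and related cyclin and activator genes are compared after them. Among the 6 subunit genes of the MCM helicase, mcm-7 (F32D1.10) was highest at 154.5 ± 10.14 CPM per kb in the single mutants. The genes mcm-4, mcm-3 and mcm-6 lay together at 87.9, 87.7 and 83.6, and mcm-5 (R10E4.4) and mcm-2 (Y17G7B.5) were lowest at 54.2 and 48.4 CPM per kb. The small subunit of ribonucleotide reductase exceeded the large subunit, rnr-1, 6.01 ± 1.11-fold per length in the single and 6.46 ± 1.04-fold in the double mutants (SD, n = 3 libraries). Cyclin B3 exceeded cyclin B1 (cyb-1, ZC168.4) 3.26 ± 0.25-fold and 3.51 ± 0.11-fold. Of the anaphase-promoting complex activators, the ratio of fzr-1 to fzy-1 was 0.966, 0.673 and 1.19 in the single and 1.24, 0.94 and 1.78 in the double mutants, so the genotypes overlap, while the ratio was higher in the double mutant within all 3 pairs.

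Without a block for the replicate number, few genes of the whole table passed the test between genotypes, and no member was among them. With genotype alone in edgeR's quasi-likelihood fit, 0 of 44 members had an adjusted p under 0.05, where 0.0806% of the 17365 tested genes did and 0.00% were called lower. At an unadjusted p under 0.05, 1 member was lower (rfc-1) and 0 were higher, against 4.50% of all tested genes that were lower. DESeq2 without the block called 0 members, against 2.81% of all genes given an adjusted p, higher or lower. In edgeR's fit without the block, all 44 had a log2 fold change of less than 0.5 in size. Standard errors were 0.109 to 0.283. The largest change was that of rfc-1, at -0.4987 without the block and -0.5168 with the replicate number as a block. The values of the 2 genotypes overlapped for 44 of 44 members, while they did not overlap for 18.5% of all tested genes. The median log2 fold change was -0.14 over the members and -0.02 over all genes tested, and 36 of 44 members (81.8%) lay below 0, as did 52.1% of all tested genes.

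Same-numbered libraries of both genotypes deviated together over all genes and were taken as pairs, so a second fit had the replicate number as a block. It called 1 of 44 members lower and 0 higher, where 1.45% of all tested genes were called lower and 2.57% higher. Standard errors of members were lower with the block, by differing amounts: 0.085 against 0.269 for pcn-1, and 0.271 against 0.276 for mcm-2. The called member was rfc-1 (C54G10.2, chromosome V, 14642667 to 14645979), the gene of the large subunit of replication factor C, the complex that loads the sliding clamp. It was at 80.05, 79.3 and 62.9 CPM in the single and 54.6, 63.3 and 39.4 CPM in the double mutants. Double mutant replicate 2 stood above single mutant replicate 3, so that the genotypes overlap, yet rfc-1 was lower in the double mutant within all 3 pairs. Its log2 fold change was -0.50 ± 0.18 (SE) with an adjusted p of 0.355 without the block and -0.52 ± 0.096 with an adjusted p of 0.0339 with it (edgeR). With the block but without pair 1 the call was lost (-0.51 ± 0.13, adjusted p = 0.234), as it was without pair 3 (-0.41 ± 0.14, adjusted p = 0.199). Those fits had 4 libraries and called 2 and 21 of all tested genes lower, so the lost calls do not show that rfc-1 depends on a pair. With DESeq2 and the block, 4 members were called lower, against 6.30% of all genes given an adjusted p. These were rfc-1, cdk-4, pri-1 and cdc-25.1, with adjusted p of 0.00092, 0.0103, 0.0274 and 0.0425.

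**Figure D2:**
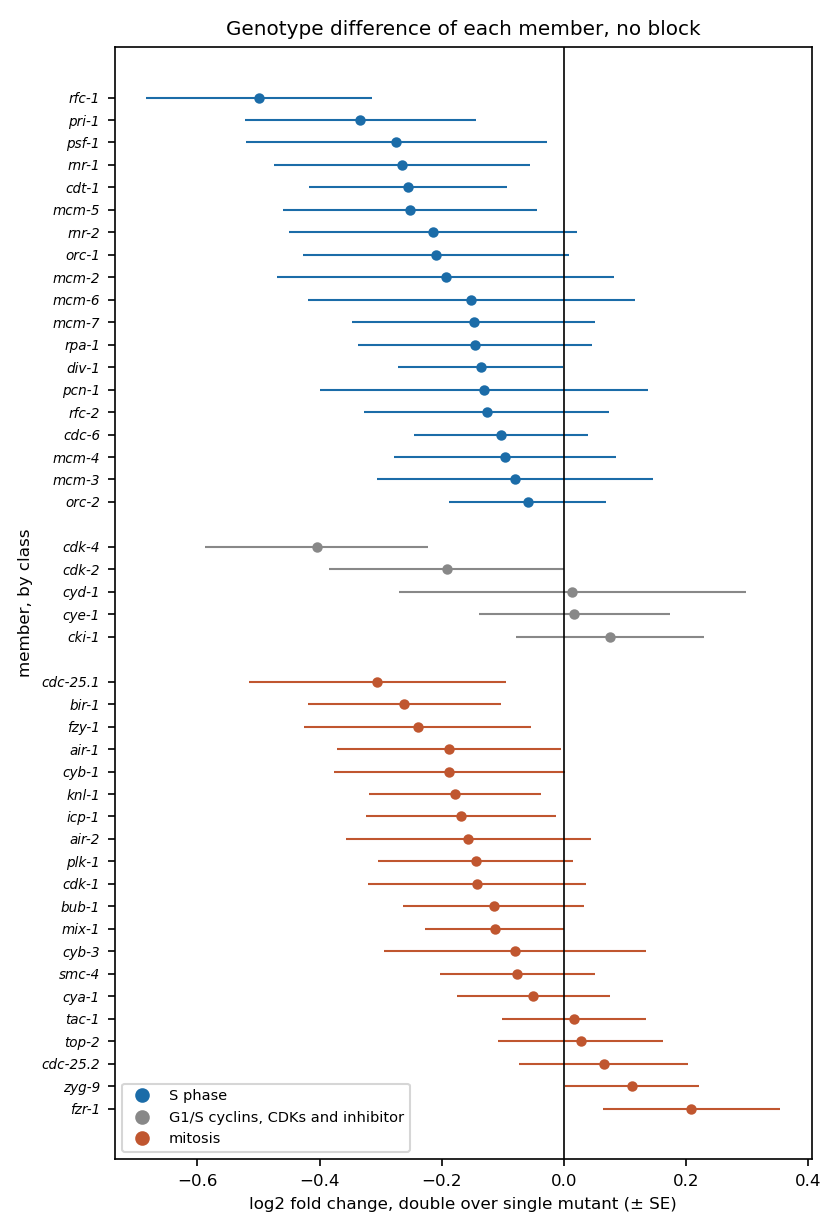
Log2 fold change of each member, double over single mutant, with its standard error, from the fit without a block, grouped and coloured by class. All 19 S phase members lie left of 0, from rfc-1 at -0.50 to orc-2 at -0.06, while mitosis members run from cdc-25.1 at -0.31 to fzr-1 at 0.21.

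All 19 S phase members had a log2 fold change below 0, with a median of -0.15 and a range of -0.50 to -0.06, and none passed the test without the block. Without the block, the count changed when 1 library was left out, which unbalances the replicate numbers. It was 11 of 19 without double mutant replicate 3 (median -0.03) and 13 of 19 without single mutant replicate 2 (median -0.11). It was 17 of 19 without double mutant replicate 1, and 18 of 19 with upper-quartile scaling (median -0.08). The count stayed at 19 of 19 with a larger median shift without double mutant replicate 2 (-0.32) and without single mutant replicate 3 (-0.28). With the block, where whole pairs were left out, it was 19 of 19 with all pairs (median -0.19). It was 19 of 19 without pair 1 (-0.19) and without pair 2 (-0.32), and 17 of 19 without pair 3 (-0.12).

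Among the 10 genes of origin binding and helicase loading, the median was -0.15 and 10 of 10 lay below 0. The lowest p belonged to cdt-1 (Y54E10A.15, chromosome I, 3223160 to 3228104), whose product brings the helicase to the origin. It was at 100.7, 91.6 and 83.6 CPM in the single and 76.8, 93.0 and 61.4 CPM in the double mutants (log2 fold change -0.26 ± 0.16, adjusted p = 0.538, edgeR), with double mutant replicate 2 among the single mutants. The most abundant of the group, mcm-7, was at 404, 376 and 355 CPM against 359, 428 and 238 CPM (log2 fold change -0.15 ± 0.20). Here double mutant replicate 2 was the highest of all 6 libraries and double mutant replicate 3 the lowest. The helicase subunit gene mcm-2 had the highest coefficient of variation of the group in the double mutants (39.9%), at 130.8, 160.6 and 67.2 CPM in the double mutants against 148, 132 and 129.9 in the single mutants. The origin recognition genes orc-1 (Y39A1A.12) and orc-2 (F59E10.1) had log2 fold changes of -0.21 ± 0.22 and -0.06 ± 0.13, and the loader gene cdc-6 (C43E11.10) one of -0.10 ± 0.14. The remaining helicase genes mcm-3 (C25D7.6), mcm-4 (Y39G10AR.14), mcm-5 and mcm-6 (ZK632.1) lay between -0.25 and -0.08.

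The 7 replication fork genes had a median of -0.15, and 6 of 7 were lower in the double mutant within all 3 pairs. Of all tested genes, 4399 (25.33%) were lower in all 3 pairs, and 47.9% had the same direction in all 3, lower or higher. Besides rfc-1, the primase gene pri-1 (F58A4.4), which makes the primers of new strands, was at 60.5, 73.6 and 55.1 CPM in the single and 44.7, 64.2 and 41.4 CPM in the double mutants. Its log2 fold change was -0.33 ± 0.19 without and -0.35 ± 0.091 with the block (adjusted p = 0.505 and 0.069, edgeR). The sliding clamp gene pcn-1 was at 362, 469 and 266 CPM against 345, 432 and 226 CPM. In both genotypes replicate 2 was highest and replicate 3 lowest, and the distance between replicates exceeded that between genotypes (log2 fold change -0.13 ± 0.27). The GINS subunit gene psf-1 (R53.6) was at -0.27 ± 0.25, the gene of a second clamp loader subunit, rfc-2 (F58F6.4), at -0.13 ± 0.20, rpa-1 at -0.15 ± 0.19 and the DNA polymerase alpha subunit gene div-1 (R01H10.1) at -0.14 ± 0.13.

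The ribonucleotide reductase genes followed the same order of libraries. For the large subunit, rnr-1 (T23G5.1, chromosome III, 9225339 to 9228798), the values were 204, 220.1 and 175 CPM in the single and 150.3, 224 and 124 CPM in the double mutants (log2 fold change -0.26 ± 0.21, adjusted p = 0.615, edgeR). For rnr-2 they were 636, 829 and 455 CPM against 594, 641 and 420.1 CPM (log2 fold change -0.21 ± 0.24). Replicate 2 was the highest library of each genotype for both subunits.

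The 5 genes that act at S phase entry did not share a direction. The cyclin D partner kinase gene cdk-4 (F18H3.5, chromosome X, 13515856 to 13518911) was at 46.8, 57.9 and 49.8 CPM in the single and 31.4, 49.5 and 35.8 CPM in the double mutants. Only double mutant replicate 2 reached the single mutant range, and cdk-4 was lower within all 3 pairs (log2 fold change -0.40 ± 0.18, adjusted p = 0.42 without and 0.056 with the block, edgeR). Its cyclin gene, cyd-1, was at 39.2, 24.5 and 33.3 CPM against 45.1, 32.1 and 20.7 CPM. Its lowest and highest values are both double mutant libraries (log2 fold change 0.01 ± 0.28). The CDK inhibitor gene cki-1 (T05A6.1), which holds cells in G1, was at 76.0, 58.9 and 76.0 CPM against 75.7, 62.7 and 83.9 CPM (log2 fold change 0.08 ± 0.15). Replicate 2 was its lowest library in both genotypes, the opposite of most members. Cyclin E (0.02 ± 0.16) and cdk-2 (-0.19 ± 0.19) did not pass the test either.

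Of the 20 mitosis members, 15 lay below 0 and 5 above, with a median of -0.13 and a range of -0.31 to 0.21, and none passed the test with or without the block. The count was 12 of 20 without double mutant replicate 3 (median -0.04) and 16 of 20 without double mutant replicate 2 (median -0.29). The median was -0.07 without double mutant replicate 1, -0.08 without single mutant replicate 2 and -0.06 with upper-quartile scaling. With the block the count was 15 of 20 with all pairs and without pair 1, 17 of 20 without pair 2 and 13 of 20 without pair 3. Whether the median of the S phase members differs from that of the mitosis members was not tested.

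Among the mitotic cyclins, their kinase and the CDC25 phosphatases that switch it on, cdc-25.1 (K06A5.7, chromosome I, 6469386 to 6471922) had the lowest p. It was at 68.1, 87.5 and 56.2 CPM in the single and 49.8, 73.4 and 48.2 CPM in the double mutants, lower within all 3 pairs. Its log2 fold change was -0.31 ± 0.21 without and -0.31 ± 0.088 with the block (adjusted p = 0.569 and 0.084, edgeR). The other phosphatase gene, cdc-25.2 (F16B4.8), was at 135, 107 and 146 CPM against 127, 142.1 and 136 CPM (0.06 ± 0.14). The most abundant, cyb-3, was at 614, 865 and 622 CPM against 579, 869 and 538 CPM, with replicate 2 highest in both genotypes (log2 fold change -0.08 ± 0.21). The kinase gene cdk-1 (T05G5.3) and cyb-1 were at -0.14 ± 0.18 and -0.19 ± 0.19, and cyclin A (cya-1, ZK507.6), counted here with mitosis although it also acts in S phase in other animals, was at -0.05 ± 0.13. Exons of cya-1 share 107 bases with dos-1 on the other strand.

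The 5 genes of mitotic kinases and chromosomal passengers all lay below 0. The survivin gene bir-1 (T27F2.3), a passenger subunit, was at 43.5, 44.3 and 36.2 CPM in the single and 30.8, 41.0 and 31.6 CPM in the double mutants (log2 fold change -0.26 ± 0.16, adjusted p = 0.524, edgeR). The INCENP gene icp-1 (Y39G10AR.13), which holds the passengers together, was at 177.9, 201 and 164 CPM against 139, 196 and 148 CPM (-0.17 ± 0.16). The Aurora B kinase gene air-2 (B0207.4) of the same complex was at -0.16 ± 0.20, the Aurora A gene air-1 (K07C11.2) at -0.19 ± 0.18 and the Polo kinase gene plk-1 (C14B9.4) at -0.14 ± 0.16. In all 5, double mutant replicate 2 lay within or above the single mutant range and the other double mutant libraries lay below it.

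The 7 kinetochore, spindle, condensin and topoisomerase genes had log2 fold changes between -0.18 and 0.11. The checkpoint kinase gene bub-1 (R06C7.8) was at 377, 425 and 367 CPM against 325, 432 and 322 CPM (log2 fold change -0.12 ± 0.15), and the kinetochore scaffold gene knl-1 (C02F5.1) at -0.18 ± 0.14. The centrosome gene zyg-9 (F22B5.7), whose product promotes microtubule growth, was at 249, 222 and 239.7 CPM in the single and 258, 263 and 247 CPM in the double mutants. It was higher within all 3 pairs, and its log2 fold change of 0.11 ± 0.11 did not pass the test. Its partner tac-1 (Y54E2A.3) was at 0.02 ± 0.12. In the condensin genes smc-4 (F35G12.8) and mix-1 (M106.1), the latter also a subunit of the dosage compensation complex, the values were -0.08 ± 0.13 and -0.11 ± 0.11. Topoisomerase II was at 1542, 1469 and 1432 CPM against 1453, 1720.0 and 1355 CPM (0.03 ± 0.14).

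The activators of the anaphase-promoting complex lay on opposite sides of 0. The gene fzy-1 (ZK177.6), the Cdc20 counterpart that acts in mitosis, was at 145, 167 and 127 CPM in the single and 116, 158 and 97.9 CPM in the double mutants (log2 fold change -0.24 ± 0.19). The gene fzr-1 (ZK1307.6), the Cdh1 counterpart that acts at mitotic exit and in G1, was at 223, 179.6 and 242 CPM against 229, 237 and 278 CPM. Its log2 fold change of 0.21 ± 0.15 was the highest of the 44 members (adjusted p = 0.573, edgeR), and it was higher within all 3 pairs. Exons of fzr-1 share 67 bases with ZK1307.7 on the other strand.

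The genotype difference was not the same in the 3 pairs. In pair 1 the median log2 ratio of double to single mutant was -0.27 for S phase and -0.23 for mitosis members, and in pair 3 it was -0.27 and -0.20. In pair 2 it was 0.02 and 0.03. Of the 44 members, 40 lay below 0 in pair 1, 17 in pair 2 and 41 in pair 3, where 52.1%, 52.5% and 50.1% of all tested genes did. The direction was the same in all 3 pairs for 18 of 44 members, against 47.9% of all tested genes. Of these, 16 were lower in the double mutant (9 S phase members, cdk-4 and 6 mitosis members) and zyg-9 and fzr-1 were higher.

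**Figure D3:**
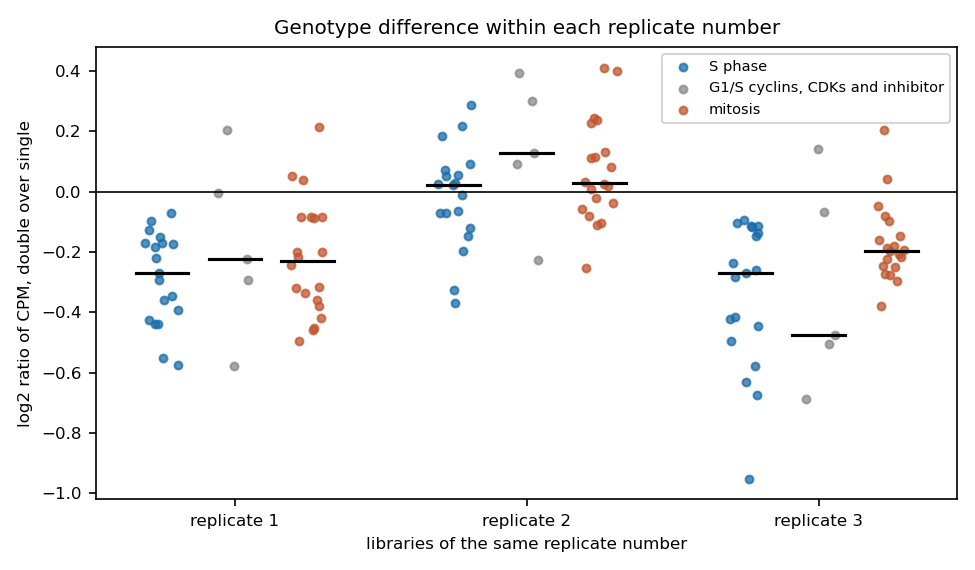
Log2 ratio of CPM, double over single mutant, within the libraries of each replicate number, 1 point per member and a bar at the median of each class. Replicates 1 and 3 have medians of -0.27 for S phase members, and replicate 2 has one of 0.02.

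When pair 2 was left out of the blocked fit, 17 of 44 members were called lower and 0 higher, against 6.39% of all tested genes called lower. They were 8 S phase members, cdk-4 and 8 mitosis members. With only 4 libraries for the pair and genotype terms, these p-values rest largely on variance shared over genes. Pair 2 was also the pair in which the class medians lay near 0, so the calls made without it are no separate support. The S phase genes were rfc-1 (log2 fold change -0.61 ± 0.11, adjusted p = 0.000102, edgeR), rnr-1 (-0.47 ± 0.089), orc-1 (-0.50 ± 0.11), mcm-5 (-0.45 ± 0.099), cdt-1, pri-1, mcm-6 and mcm-7. The mitosis genes were fzy-1 (-0.35 ± 0.093), knl-1 (-0.33 ± 0.090), plk-1, air-2, cyb-1, cdc-25.1, air-1 and icp-1 (adjusted p = 0.0074 to 0.0484). Without pair 1 and without pair 3 the blocked fit called 0 members, where it called 2 and 21 of all tested genes lower. In edgeR, rfc-1 was the one member called with all 3 pairs.

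Members varied more with the replicate number than with the genotype. The highest of the 6 values came from replicate 2 of either genotype in 36 of 44 members (81.8%), as in 36.4% of all tested genes. The lowest came from double mutant replicate 3 in 28 members (63.6%; 18.8% of all tested genes), among them 16 of the 19 S phase members. Of the sum of squares of log2 CPM, a median of 60.8% lay between replicate numbers and 13.6% between genotypes in the members, beside 47.2% and 21.9% in all tested genes. Replicate number holds 2 and genotype 1 of the 5 degrees of freedom. The mean centred level of the S phase members ran from -0.44 in double mutant replicate 3 to 0.28 in single mutant replicate 2. That of the mitosis members ran from -0.20 to 0.19 on the log2 scale. The range of such a mean also depends on how alike the genes of a class moved, and the difference between the classes was not tested.

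**Figure D4:**
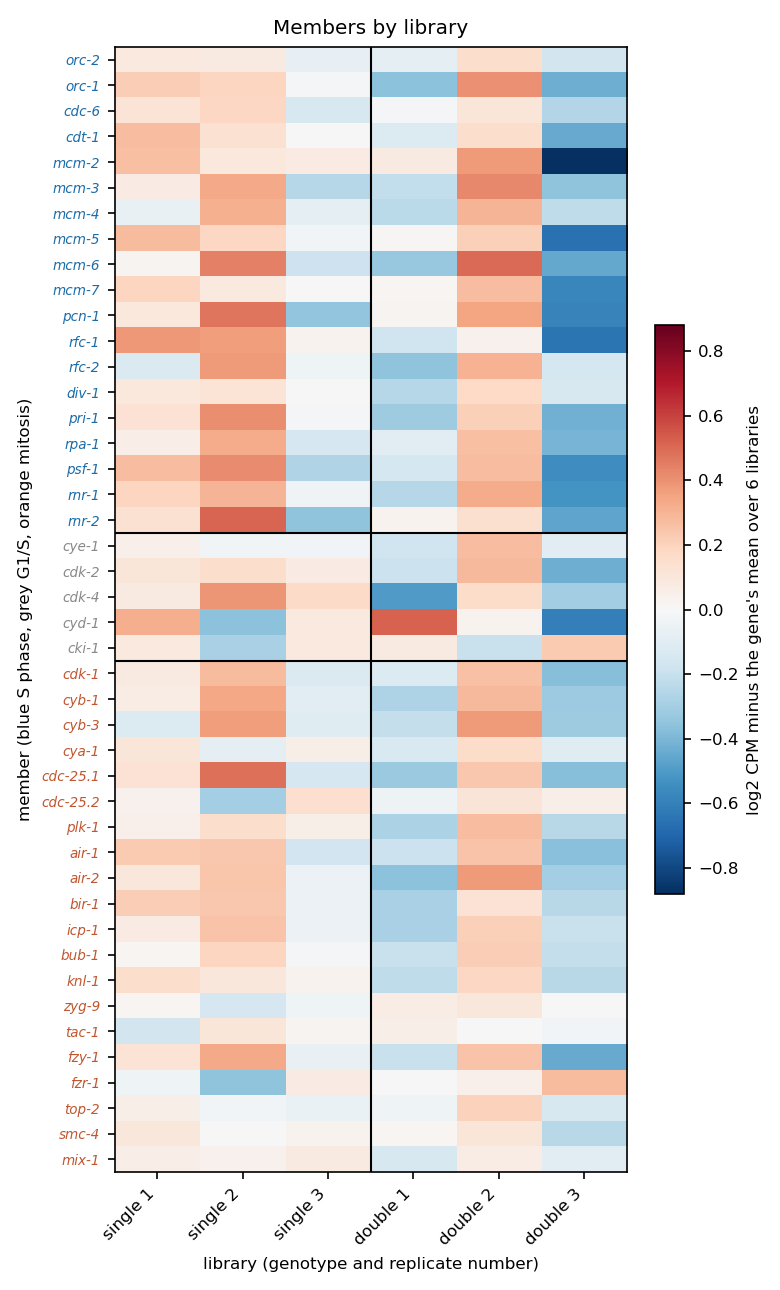
Log2 CPM of each member minus its mean over the 6 libraries, in rows by class and columns by library. The highest value lies in a replicate 2 column for 36 of 44 members and the lowest in double mutant replicate 3 for 28.

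Members also differed more among the double mutant libraries than among the single mutant libraries. The coefficient of variation over 3 libraries had a median of 11.3% in the single and 22.6% in the double mutants over the members, and it was larger in the double mutants for 39 of 44 (88.6%). Over all tested genes the medians were 17.3% and 18.2%, and it was larger for 53.3%. The centrosome genes zyg-9 and tac-1 were among the 5 exceptions, with 5.65% and 9.34% in the single and 3.29% and 2.64% in the double mutants. Whether the spread differs between genotypes was not tested.

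Maternal and muscle markers shared the extreme of replicate 2 with most members, but not the full order of libraries. The 14 maternal and early embryonic transcripts summed to 1216, 1314 and 949 CPM in the single and 775, 1348 and 842 CPM in the double mutants, so that replicate 2 was highest in both genotypes, and 13 of 14 had a log2 fold change below 0. The 10 muscle and pharynx genes summed to 3865, 2818 and 3468 CPM against 7223, 3891 and 4961 CPM, lowest in replicate 2 of each genotype, with 10 of 10 above 0. With the block, 7 of these 10, 3 of 6 intestinal and 3 of 7 neuronal markers were called higher, against 2.57% of all tested genes, and 1 of 14 maternal transcripts was called lower, against 1.45%. Neuronal markers were above 0 in 7 of 7, at 424 to 431 CPM in sum against 488 to 560.1 CPM, and 6 of 6 epidermal markers were below 0, at 1336 to 1910.0 against 1394 to 1649 CPM. The 6 intestinal markers summed to 487 to 541 CPM against 662 to 766 CPM, with 4 above 0. Among double mutants the maternal sum was lowest and the muscle sum highest in replicate 1, while most members were lowest in replicate 3. In pair 2 the log2 ratio of sums, double over single, was 0.04 for maternal, 0.47 for muscle and 0.39 for intestinal markers. It was -0.65, 0.90 and 0.50 in pair 1, and -0.17, 0.52 and 0.48 in pair 3. The part of embryo stage or tissue makeup in the values of the members was not tested, and fewer dividing cells cannot be told apart from less RNA per cell in whole embryos.

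**Figure D5:**
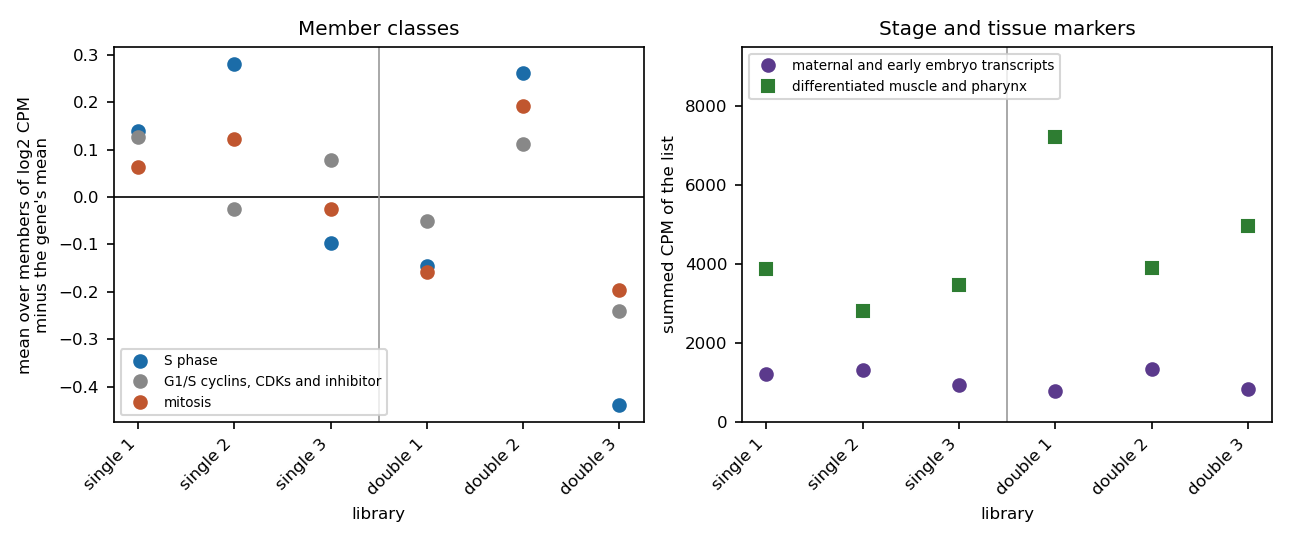
Left, mean over the members of each class of log2 CPM minus the gene's mean, by library. Right, summed CPM of 14 maternal and early embryonic transcripts and of 10 muscle and pharynx genes in the same libraries. Replicate 2 is highest for S phase members, mitosis members and the maternal list, and lowest for the muscle and pharynx list, within each genotype.

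Further genes of the same machinery were taken from lists by function. Of 33 further S phase genes tested, 29 lay below 0 (median -0.22) and 24 were lower within all 3 pairs, where 25.33% of all tested genes were. None of the 33 passed the test with or without the block. The lowest p belonged to the DNA polymerase epsilon subunit gene pole-2 (49.2, 57.95 and 48.1 CPM against 36.8, 48.3 and 34.5 CPM; log2 fold change -0.38 ± 0.16), to the origin firing kinase gene cdc-7 (-0.54 ± 0.23) and to lin-35 (-0.25 ± 0.13), the worm retinoblastoma counterpart. Of 75 further mitosis genes, 63 lay below 0 (median -0.16) and 29 were lower within all 3 pairs. None passed without the block, and 4 fell with it, where 1.45% of all tested genes were called lower. With the block but without pair 1 or without pair 3, 0 of these genes were called, so all 4 calls were lost. Of all tested genes, 2 were called lower without pair 1 and 21 without pair 3, in fits of 4 libraries, so these losses do not show dependence on a pair.

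These 4 were the kinetochore genes kbp-1, kbp-2 and kbp-3 and the gene of the anaphase-promoting complex subunit apc-11. The level of kbp-1 was 47.5, 79.4 and 32.4 CPM in the single and 29.5, 49.97 and 17.8 CPM in the double mutants. The order of the replicates was the same in both genotypes, with replicate 2 highest, and within each the double mutant was lower. Its log2 fold change was -0.71 ± 0.43 without the block (adjusted p = 0.533) and -0.74 ± 0.093 with it (adjusted p = 0.00954, edgeR). Exons of kbp-1 share 53 bases with K04C2.8 on the same strand. With the block, kbp-2 was at -0.69 ± 0.098, kbp-3 at -0.42 ± 0.087 and apc-11 at -0.46 ± 0.10. The microtubule nucleation gene tbg-1 had the lowest p among the mitosis genes without the block. It was at 52.3, 53.2 and 52.7 CPM against 41.6, 36.7 and 41.7 CPM (log2 fold change -0.40 ± 0.12, adjusted p = 0.273 without and 0.052 with the block, edgeR). Next came cls-2, a kinetochore microtubule gene that was higher (0.29 ± 0.13), and the condensin gene capg-1 (-0.21 ± 0.11). The genotypes did not overlap for tbg-1, cls-2 and capg-1, nor for lin-35 and cul-4 of the further S phase genes. They did not overlap for 18.5% of all tested genes.

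The members lie on all 6 chromosomes. Of the 9 members on chromosome I, mcm-4 (2318291 to 2321817) ends 61.1 kb and icp-1 (2304513 to 2306790) 76.2 kb before dot-1.1 (2382953 to 2401492). Their log2 fold changes, -0.10 and -0.17, lie within the range of the other members. The median was -0.17 for the 12 members on chromosome III and -0.02 for the 12 on chromosome II, and the 1 member on chromosome X was cdk-4.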

How the data were processed

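The authors deposited raw read counts per gene in 1 table for all libraries. Columns were assigned through the description in each sample's labels. HISAT2 2.0.5 and StringTie were used with genome build WBcel235, per the submitters' processing notes. For the counting itself, program, annotation, strand use and multiple mapping were not given in the sources used here, which leaves overlapping and antisense genes uncertain. Symbols, coordinates and exon lengths came from the Ensembl annotation of WBcel235, which matched 46180 of 46659 rows to 1 gene each.

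Genes were tested across the whole table with edgeR 4.0.16 in R 4.3.3: filterByExpr (17365 genes kept), TMM scaling and the robust quasi-likelihood test, two-sided, with Benjamini-Hochberg adjustment over all tested genes and a threshold of 0.05. SE was taken as the log2 fold change divided by the square root of the F statistic. CPM includes TMM factors, and CPM per kb divides it by the union of exons. Depth was 66316445 to 77957224 counts per library, and precision is limited by 3 libraries per genotype, with a biological coefficient of variation of 0.265. Replicates of a genotype differed beyond sampling noise (chi-square per degree of freedom 98.0 to 190.0). P-values set the genotype difference against the spread between libraries of a genotype without the block, and against the spread left within pairs with it. Both use variances moderated over genes.

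After removal of genotype means, same-numbered libraries correlated at 0.169, 0.199 and 0.32, and differently numbered ones at -0.239 to 0.0587. All 3 exceed the limit of 0.1, and the numbers were treated as pairs on these data alone, since the labels state no pairing. A fit with the block (coefficient of variation 0.201) is given where it changes a call and for some further genes. Values of single genes are otherwise from the fit without it. The members and all lists were chosen with earlier results of these data known. Named genes were those called in either fit, those with the highest level per length and the lowest p in each role group, and for the further genes those called and the 3 of each class with the lowest p. Other members are added to account for all 44. Of the lists, sld-3, pold-1 and smc-1 matched no row by symbol. Alternatives were other scalings, no filter, DESeq2 1.42.0, the block, and leaving out libraries or pairs. Sequences were not used here.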

Additional observations from a re-analysis of the deposited data

How the results depend on the processing

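Of all tested genes, 14 were called higher and 0 lower without the block. The counts were 446 and 251 with the replicate block, 391 and 97 with DESeq2, and 1035 and 967 with DESeq2 and the block. Scaling by library totals gave 26 and 0, upper-quartile scaling 28 and 0, and no filter on low counts 4 and 0. Upper-quartile scaling moved the median log2 fold change of all genes to 0.05. Leaving out 1 library at a time gave 1 to 42 higher and 0 to 1 lower. The blocked fit gave 9 and 2 without pair 1, 1361 and 1115 without pair 2, and 160 and 21 without pair 3. The cause of these shifts was not tested.

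Members called lower numbered 0 without the block, 1 with it, 4 with DESeq2 and the block, and 17 with the block and without pair 2. They were 0 under the other alternatives, and 0 members were called higher under any. The further replication and division genes called lower numbered 4, 18 and 33 under the same 3 alternatives. The paired fit changed no call other than rfc-1, kbp-1, kbp-2, kbp-3 and apc-11 among the members and further genes of the lists.

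The median log2 fold change of the members that act at S phase entry was 0.01, and was -0.16 and -0.24 with the block and without pair 1 or 2. Leaving out single libraries gave -0.15 to 0.053 for these and -0.29 to -0.037 for the mitosis members. Signs of small differences turned when libraries were left out, over ranges of -0.31 to 0.066 for mcm-7, -0.32 to 0.10 for pcn-1, -0.41 to 0.020 for rnr-2, -0.032 to 0.21 for cki-1, -0.29 to 0.10 for cyb-3, -0.040 to 0.078 for tac-1 and -0.046 to 0.11 for top-2. With the block, tac-1 was at -0.087 without pair 1, top-2 at -0.083 without pair 2 and mcm-7 at 0.033 without pair 3. With 3 libraries per genotype, depth was not the limit: the standard errors of the members were 0.109 to 0.283 at 1236 or more counts each.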
